A study of Mus musculus with 8 samples.

Results

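The genes described here encode the proteasome, the protease complex that degrades proteins tagged with ubiquitin. Members were the genes whose symbol is Psm followed by a letter from a to g and a number, without Psmb8 and Psmb9, and each was represented by its transcript row with the highest mean count over the 8 libraries. The rule found 46 genes among the 22869 symbols of the table, and 45 of them had enough reads to be tested. The study compared the cortex of APP/PS1 mice, which carry transgenes for amyloid precursor protein and presenilin and form amyloid plaques, on a C57BL/6 background. RNA from 4 libraries of mice treated with bexarotene, a drug that activates retinoid X receptors, was set against 4 libraries of mice given 0.2 mg/kg glycerol, called vehicle here. All 8 libraries carry the APP/PS1 genotype, so no comparison with mice without plaques can be made. The sources used here give neither age, sex and bexarotene dose nor how many animals a library holds. The labels do not say that each library is a separate animal, and the spread behind every p-value is that between libraries. Every pair of libraries within a group differed beyond sampling noise, with a chi-square per degree of freedom of 11.1 to 93.8.

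The proteolytic chamber of the proteasome is the 20S core, a barrel whose outer rings are built of alpha subunits that gate the entrance and whose inner rings are built of beta subunits, some of which cut peptide bonds. The 19S particle caps the barrel: its ATPases unfold substrates, and its other subunits bind and remove ubiquitin. In neurons and glia the proteasome clears misfolded proteins, and its core genes are known to be induced together through the transcription factor Nfe2l1, which binds antioxidant response elements, when proteolysis falls short. Interferon replaces the catalytic beta subunits by Psmb8, Psmb9 and Psmb10 and adds the activator built of Psme1 and Psme2, which favours peptides for antigen presentation.

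Total counts over all table rows ranged from 42413825 to 76542067 per library. In a principal component analysis of log2 CPM, the libraries did not lie apart by treatment on the first component. CPM are the counts scaled to library size. The first component, with 36.7% of the variance, separated replicates 1 and 3 from replicates 2 and 4 in either group. Summed markers of cortical excitatory neurons ranged from 1084 CPM in bexarotene replicate 1 to 1856 CPM in bexarotene replicate 4. Summed striatum markers were highest in bexarotene replicates 1 and 3 and vehicle replicate 1, at 973, 713 and 490 CPM, against 167 to 262 CPM in the other 5 libraries. Summed choroid plexus markers were at 88.4, 1449, 74.55 and 226 CPM in bexarotene replicates 1 to 4. Vehicle libraries had 16.8 to 40.95 CPM of them, so the groups did not overlap. The bexarotene libraries held both Xist and Y-linked transcripts, whereas Xist marked vehicle replicates 1 and 3 and Y-linked transcripts vehicle replicates 2 and 4, the same division as on the first component. Holding both thus went with treatment and cannot be told apart from it. Its part in the proteasome values or in their spread was not tested. These tissue differences, and with them the share of each cell type, cannot be told apart from a change in RNA per cell in any result below, and their part in the proteasome values was not tested.

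Most proteasome genes were slightly higher under bexarotene, and none passed the test. Of the 45 members tested, 37 had a positive log2 fold change and 8 a negative one, with a median of 0.13 (bexarotene minus vehicle), while 50.2% of all 16069 genes tested were positive and their median was 0.0009. At an adjusted p below 0.05 in edgeR's quasi-likelihood test, 0 members were called, against 0.00622% of all genes. At an unadjusted p below 0.05, 12 members were higher and 0 lower, against 4.88% and 3.89% of all genes. In 9 members every bexarotene library exceeded every vehicle library, against 3.61% of all genes, and in 0 members the reverse held, against 2.16%. An exact two-sided permutation test over the 8 libraries gave those 9 members p = 0.029, the smallest it can give, which became 0.495 after adjustment over all genes tested. DESeq2 called 1 member, Psma7, against 0.485% of all genes called higher, and edgeR's exact test called 0, against 0.193%. An offset for transcript length and GC content in each library lowered the median of the members to 0.04, with 33 positive and 12 negative, and left 2 members without overlap, against 2.49% of all genes. By gene group, the median log2 fold change was 0.23 in the alpha ring, 0.21 in the beta ring and 0.18 among the ATPases, against 0.06 among the other 19S subunits, 0.12 among assembly chaperones and -0.01 among activators and the inhibitor. With the offset the order of the groups changed, and the medians were 0.11, 0.05, 0.13, 0.02, -0.01 and 0.0093 in the same sequence. Differences between these groups were not tested. Without bexarotene replicate 4, 14 members lay above all vehicle libraries, against 5.93% of all genes, and without vehicle replicate 3, 17 did, against 6.2%.

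**Figure D1:**
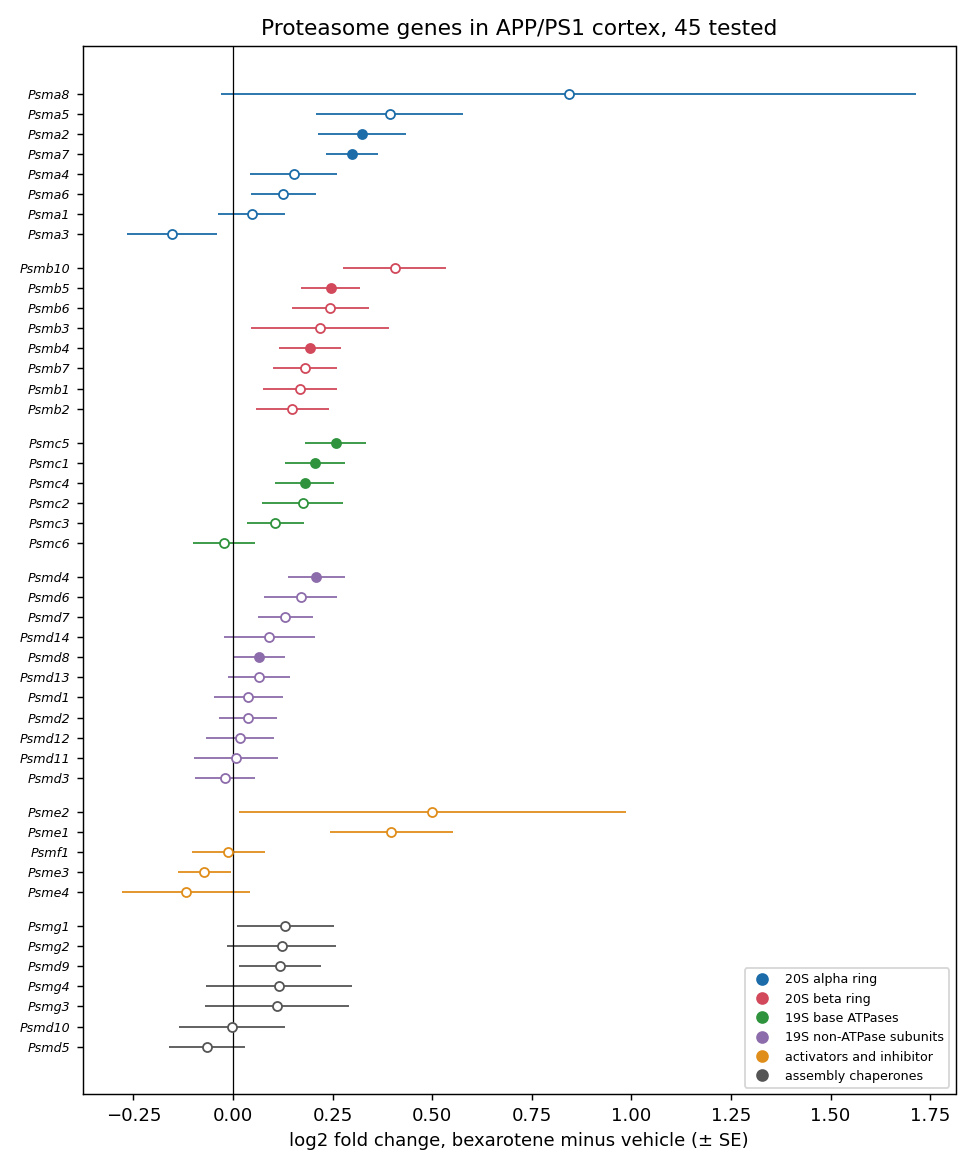
Log2 fold change (bexarotene minus vehicle, x axis) of the 45 tested proteasome genes, one per row, with its standard error as a bar and the gene group as colour; filled points mark the 9 genes in which all bexarotene libraries exceeded all vehicle libraries. Points of the beta ring all lie right of 0, and those of the activators lie on both sides.

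The summed level of all members per library showed how narrow the gap was. It was 2165, 2124, 2189 and 2085 CPM in bexarotene replicates 1 to 4 and 1973, 1926, 2082 and 1876 CPM in vehicle replicates 1 to 4, so the lowest bexarotene library and the highest vehicle library nearly met. The summed beta ring was at 415 to 461 CPM under bexarotene and 356 to 409 CPM under vehicle, without overlap. The summed ATPases were at 458 to 471 CPM and 395 to 437 CPM, also without overlap. The alpha ring (234 to 258 and 204 to 238 CPM), the non-ATPase 19S subunits (716 to 731 and 662 to 728 CPM), the activators with the inhibitor (166 to 172 and 159.5 to 174 CPM) and the assembly chaperones (84.4 to 100.2 and 82.7 to 97.3 CPM) overlapped between groups. Vehicle replicate 3 had the highest vehicle sum in the alpha ring, the beta ring, the ATPases and the other 19S subunits.

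**Figure D2:**
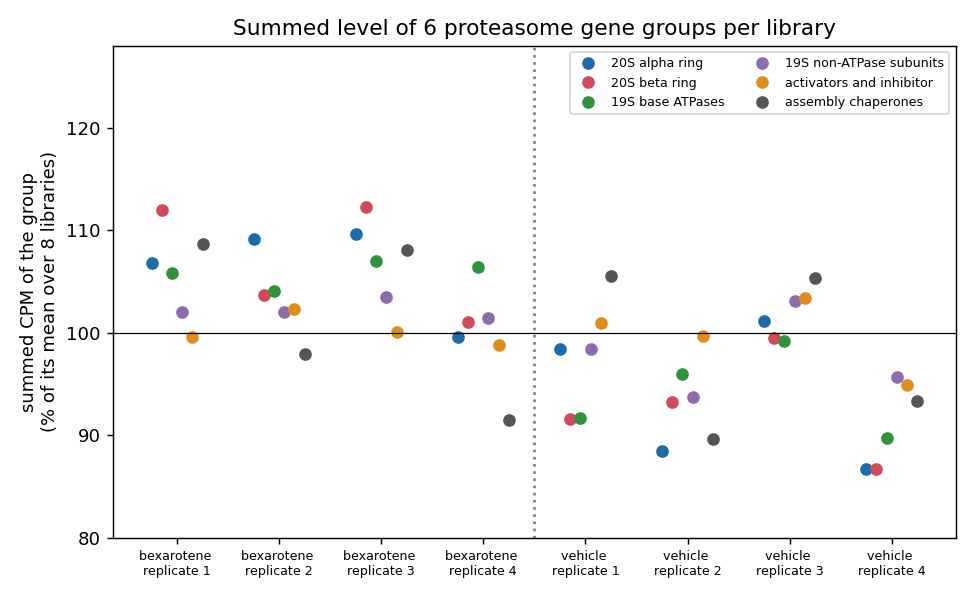
Summed CPM of each of the 6 proteasome gene groups in each library, as a percent of that group's mean over the 8 libraries (y axis, not starting at 0), with bexarotene libraries left of the dotted line and vehicle libraries right of it. The beta ring and the ATPases do not overlap between treatments, and vehicle replicate 3 lies nearest to the bexarotene libraries.

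Among the alpha subunits, Psma7 had the smallest p of all members. Bexarotene replicates 1 to 4 had 62.4, 62.6, 61.8 and 60.4 CPM of it and vehicle replicates 1 to 4 had 51.9, 49.1, 51.5 and 48.3 CPM. The groups did not overlap and the libraries within a group differed little: the means were 61.8 ± 0.995 and 50.2 ± 1.79 CPM (SD, n = 4). The log2 fold change of 0.30 ± 0.07 (SE), 1.23-fold, had an adjusted p of 0.36 by quasi-likelihood in edgeR (0.000951 before adjustment), and DESeq2 gave 0.29 with an adjusted p of 0.0066. Psma2 was at 40.8, 40.9, 40.0 and 39.5 CPM under bexarotene and at 34.2, 30.2, 38.2 and 26.3 CPM under vehicle, so the vehicle libraries spread widely below a tight bexarotene group. Its log2 fold change was 0.32 ± 0.11 (adjusted p = 0.483 in edgeR's test). Psma3 had the most negative value of all members, at 8.07 to 8.54 CPM under bexarotene and 8.17 to 10.4 CPM under vehicle (log2 fold change -0.15 ± 0.11). Psma8, the alpha subunit of the testis proteasome, was close to absent at 0.234 to 0.443 CPM under bexarotene and 0 to 0.353 CPM under vehicle, and its log2 fold change of 0.84 had a standard error of 0.87.

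All 8 tested beta subunits were positive, between 0.15 and 0.41, and 5 of them had an unadjusted p below 0.05, against 4.88% of all genes. With the offset 7 were positive, Psmb2 was at -0.02, and 1, Psmb10, had an unadjusted p below 0.05. Psmb5 carries the chymotrypsin-like activity, Psmb6 the caspase-like and Psmb7 the trypsin-like activity. Psmb5 was at 41.0, 41.0, 43.8 and 41.1 CPM under bexarotene and at 37.2, 35.7, 35.8 and 32.2 CPM under vehicle, without overlap (log2 fold change 0.24 ± 0.07, adjusted p = 0.445 in edgeR's test). Psmb6 was at 67.5, 53.1, 63.1 and 54.2 CPM under bexarotene and at 48.3, 52.1, 53.5 and 46.9 CPM under vehicle. Here bexarotene replicates 1 and 3 stood above the rest, and bexarotene replicate 2 fell below vehicle replicate 3 (log2 fold change 0.24 ± 0.10, adjusted p = 0.549 in edgeR's test), and with the offset it was 0.02. Psmb7 was at 71.6, 75.2, 76.5 and 67.4 CPM under bexarotene and at 66.3, 65.3, 67.4 and 57.2 CPM under vehicle, with the lowest bexarotene library level with the highest vehicle library (0.18 ± 0.08, adjusted p = 0.573 in edgeR's test, and 0.08 with the offset). Psmb4, a non-catalytic subunit with the highest level per length of its ring at 80.4 CPM per kb over the 8 libraries, was at 97.3 to 105 CPM and 79.8 to 94.5 CPM without overlap (0.19 ± 0.08). Psmb11, the thymus-specific subunit, had 1 to 12 reads per library and was not tested.

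The 250 bases before the start of 38 members were searched on both strands for 8 transcription factor motifs, in RefSeq promoters of build GRCm38.p6; the remaining 8 members had no entry in the table used. The antioxidant response element core, TGACNNNGC, was found in 5 members (13.2%), against 11.5% of 27025 genes, so its share lay near the background. The matches in the catalytic subunits Psmb5 and Psmb6 are shown because Nfe2l1 is the known regulator of this family, with the match in capitals. The nuclear respiratory factor 1 site was found in 6 members (15.8%), against 4.23% of genes, and is shown for Psma2 and Psmc5 as examples. The other members with it were Psma3, Psma4, Psmc4 and Psmd14, whose log2 fold changes ran from -0.15 ± 0.11 (Psma3) to 0.18 ± 0.07 (Psmc4). A link between the site and the fold change was not tested.
Psmb5, chr14:54618014-54618062, minus strand: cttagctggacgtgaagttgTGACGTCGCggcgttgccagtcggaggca
Psmb6, chr11:70525328-70525356, plus strand: cagaggcggactaaagagagTGACGGAGC
Psma2, chr13:14613095-14613144, plus strand: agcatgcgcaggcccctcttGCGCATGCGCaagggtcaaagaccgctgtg
Psmc5, chr11:106256116-106256165, plus strand: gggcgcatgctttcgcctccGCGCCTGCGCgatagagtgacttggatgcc
The match in Psmc5 lies on the strand opposite to the gene. The core of the interferon-stimulated response element was found in 7.89% of members and 3.46% of genes, and TTCCNGGAA, the gamma interferon activation site, in 0 members and 1.09% of genes. No match of either was recorded for Psmb10, Psme1 or Psme2, and which members lacked an entry is not listed here. Neither was found in the windows of the inducible Psmb8 and Psmb9. CCAAT was found in 34.2% of members and 37.5% of genes and GGAAGTG in 13.2% and 9.77%, while TGACGTCA and GCCATNTTG were found in 0 members, against 1.77% and 1.54% of genes. Some matches of different motifs overlap, and a match is a run of letters and not a shown binding site.

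The ATPases of the 19S base, which thread unfolded substrates into the core, were positive in 5 of 6. Psmc5 had the highest level per length of all members, at 87.2 CPM per kb. It was at 126, 119, 126 and 129 CPM under bexarotene and at 95.6, 108, 102 and 112 CPM under vehicle, without overlap, and its log2 fold change was 0.26 ± 0.08 (adjusted p = 0.435 in edgeR's test). Psmc1 was at 69.5, 67.8, 70.3 and 69.3 CPM under bexarotene and at 58.1, 61.7, 65.5 and 54.6 CPM under vehicle (0.21 ± 0.08, adjusted p = 0.513 in edgeR's test). Psmc4 did not overlap either, at 61.4 to 64.5 and 50.2 to 58.8 CPM (0.18 ± 0.07). Psmc6 differed by less than its error, at 39.4 to 43.1 and 38.5 to 44.3 CPM (-0.02 ± 0.08).

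The other 19S subunits stayed closer to 0, between -0.02 and 0.21. An unadjusted p below 0.05 was found in 1 of 11, against 4.88% of all genes higher and 3.89% lower. That one was Psmd4, a ubiquitin receptor, at 72.0, 64.5, 65.4 and 68.0 CPM under bexarotene and 56.9, 61.1, 59.5 and 55.9 CPM under vehicle, without overlap. Its log2 fold change was 0.21 ± 0.07 (adjusted p = 0.481 in edgeR's test), and 0.07 with the offset. Psmd7, which partners the deubiquitinase Psmd14, was at 59.4 to 63.7 CPM and 53.2 to 59.7 CPM, with vehicle replicate 4 reaching into the bexarotene range (0.13 ± 0.07). Psmd8 was at 74.0 to 75.6 and 68.5 to 73.6 CPM, without overlap, although the log2 fold change was 0.07 ± 0.06, and -0.05 with the offset. The scaffold subunit Psmd3 was at 114, 106, 121 and 113 CPM under bexarotene and 107, 122, 114 and 117 CPM under vehicle, with the groups interleaved (-0.02 ± 0.08). The large scaffold subunits Psmd1 and Psmd2 had log2 fold changes of 0.04 ± 0.09 and 0.04 ± 0.07.

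Of the 5 activators and inhibitors, Psme1 had an unadjusted p below 0.05 and the other 4 lay near their errors or within them. Psme1 was at 36.6, 24.2, 34.3 and 23.4 CPM under bexarotene and at 25.3, 22.2, 21.7 and 20.8 CPM under vehicle. Bexarotene replicates 1 and 3 were high, while replicates 2 and 4 lay below vehicle replicate 1. The log2 fold change was 0.40 ± 0.15 (adjusted p = 0.537 in edgeR's test). Psme2 was scarce, at 1.85, 1.06, 1.67 and 1.35 CPM under bexarotene and 1.08, 0.327, 2.01 and 0.77 CPM under vehicle, with full overlap (0.50 ± 0.48). Psme3, the nuclear activator, was at 79.4 to 83.5 and 81.2 to 88.7 CPM (-0.07 ± 0.07). Psme4, a large activator with a role in histone turnover, was at 21.8, 33.6, 21.9 and 33.4 CPM under bexarotene and 26.8, 29.0, 32.9 and 31.5 CPM under vehicle, so its bexarotene libraries split into a low pair and a high pair (-0.12 ± 0.16). Psmf1, an inhibitor of the core, had a log2 fold change of -0.01 ± 0.09. With the offset Psme4 and Psmf1 were at 0.0039 and 0.0093, so 4 of the 5 were positive. Of the 7 assembly chaperones, which help the rings and the base to form, 5 were positive and 0 had an unadjusted p below 0.05, and with the offset 3 were positive. The chaperones Psmg1 (0.13 ± 0.12), Psmg2 (0.12 ± 0.14) and Psmd9 (0.12 ± 0.10) were the 3 singled out by p and level, and all 3 overlapped between treatments. Leaving out 1 library moved Psmg2 between 0.05 (without vehicle replicate 2) and 0.22 (without bexarotene replicate 4), and Psmd9 between 0.06 (without bexarotene replicate 1) and 0.17 (without bexarotene replicate 4).

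Psmb10, the inducible counterpart of Psmb7, had the largest log2 fold change of the tested beta subunits. It was at 33.6, 29.5, 33.1 and 29.6 CPM under bexarotene and at 19.1, 29.7, 22.2 and 23.9 CPM under vehicle, and vehicle replicate 2 alone reached the bexarotene range. The means were 31.4 ± 2.17 and 23.7 ± 4.46 CPM (SD, n = 4), and the log2 fold change was 0.41 ± 0.13 (adjusted p = 0.469 in edgeR's test). The other inducible catalytic subunits, which the rule leaves out, were lower in level: Psmb8 at 7.64, 4.49, 7.40 and 6.06 CPM under bexarotene and 3.60, 3.13, 4.97 and 3.75 CPM under vehicle, and Psmb9 at 1.41 to 2.98 and 0.687 to 1.79 CPM. Their log2 fold changes were 0.73 ± 0.21 and 0.83 ± 0.35, with adjusted p of 0.427 and 0.562 in edgeR's test. Psmb10 differed by 0.69 on the log2 scale between the replicates 1 and 3 of the groups and by 0.15 between the replicates 2 and 4, and Psme1 by 0.60 and 0.15. The other inducible subunits did not share this split: Psmb8 differed by 0.83 and 0.60, Psmb9 by 0.76 and 0.91, and the scarce Psme2 by 0.25 and 1.19. An interaction of treatment and library cluster, tested in edgeR after these values were seen, gave adjusted p of 0.249 for Psmb10 and 0.28 for Psme1. At an unadjusted p below 0.05 the interaction took in 6 of 45 members, against 13.3% of all genes. Of 17 interferon-stimulated genes in the table, all were positive (median 0.90) and 0 were past the threshold. An unadjusted p below 0.05 was found in 12, against 4.88% of all genes higher. The summed level of the 17 was 207 and 196 CPM in bexarotene replicates 1 and 3 and 110.2 and 124 CPM in replicates 2 and 4, against 97.1 to 113 CPM under vehicle. Irf7, which drives interferon transcription, had a log2 fold change of 1.31 ± 0.38 and the surface tether Bst2 1.20 ± 0.25. All 8 microglia markers were positive, 7 with an unadjusted p below 0.05, against 4.88% of all genes higher, and 0 past the threshold. The sum of the 8 markers was 525 to 701 CPM under bexarotene and 376 to 492 CPM under vehicle, and the part of microglia in the inducible subunits was not tested.

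**Figure D3:**
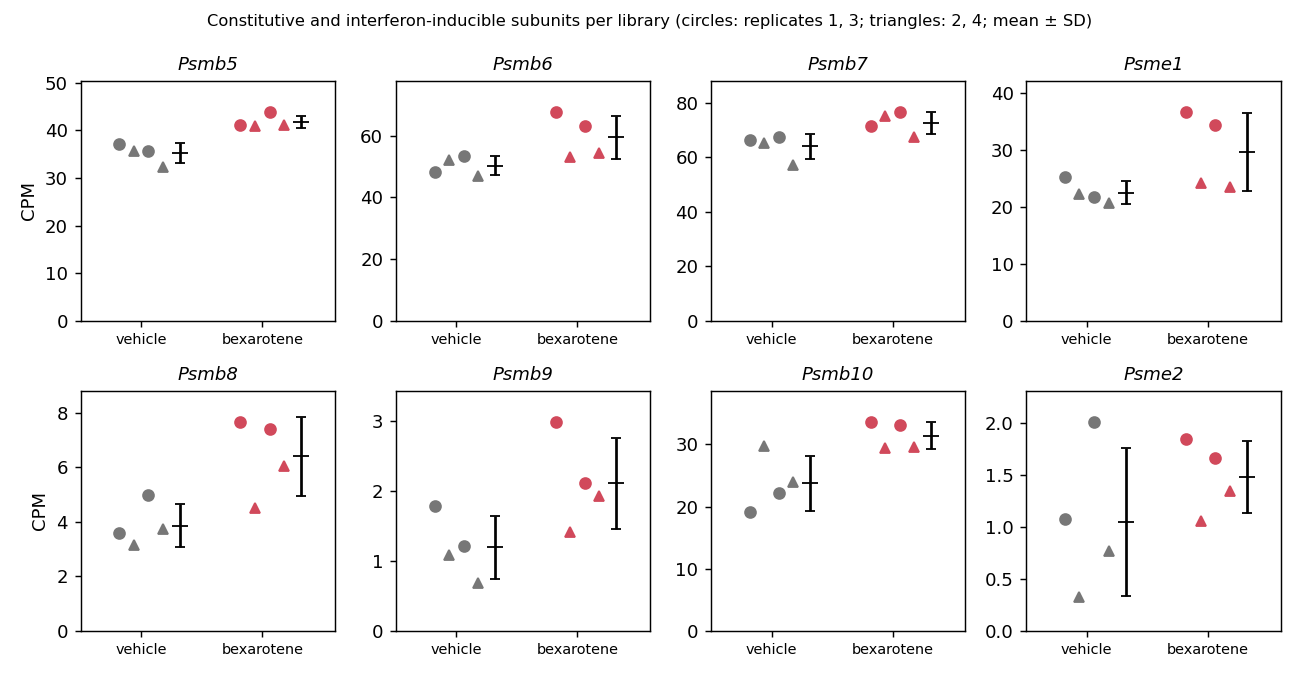
CPM per library (y axis, from 0) of the constitutive catalytic subunits Psmb5, Psmb6 and Psmb7 and of the interferon-inducible Psmb8, Psmb9, Psmb10, Psme1 and Psme2; circles are replicates 1 and 3, triangles replicates 2 and 4, and black marks the mean ± SD (n = 4). Psmb5 is tight in both groups, whereas Psme1 is high only in the 2 circles of the bexarotene group.

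The small excess was present in either cluster of libraries. Within replicates 1 and 3 the median log2 difference of the 45 members was 0.15, as it was within replicates 2 and 4, against 0.03 and 0.01 over all genes. Within replicates 1 and 3, 32 members were higher under bexarotene, and within replicates 2 and 4, 41. The share of all genes higher within each cluster is not given, nor are these values with the length and GC offset. Both bexarotene libraries lay above both vehicle libraries in 22 members within replicates 1 and 3, against 29.9% of all genes, and in 30 within replicates 2 and 4, against 18.7%. Both differences were positive in 29 of 45 members, against 28.3% of all genes. Psma7 differed by 0.26 and 0.34, Psmb5 by 0.22 and 0.28, and Psmc1 by 0.18 and 0.24. Psme4 turned from -0.44 to 0.15, with the smallest interaction p of all members (adjusted p = 0.196 in edgeR). Without the 3 libraries richest in striatum markers, 35 of 45 members were positive with a median of 0.10, against -0.0027 over all genes. In that setting 16 members lay above all vehicle libraries kept, against 9.35% of all genes, and 0 passed the threshold. Of the 45 members, 35 spread more between vehicle than between bexarotene libraries on the log2 scale, against 66.7% of all genes.

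Transcript length moved with the fold change and is a property that most members share. Their transcripts, from 555 nt (Psmg4) to 6491 nt (Psme4), had a median of 1476 nt. Across members, length and log2 fold change correlated at a Spearman rho of -0.58 (n = 45), and across 11493 genes above 2 log2 CPM at -0.47; the values of all genes come from the same 8 libraries, and no p is given. Among the 15 members of 1000 to 1500 nt the median log2 fold change was 0.18, against 0.12 over 940 genes of that length. Among the 12 members of 1500 to 2500 nt it was 0.10, against 0.05 over 2519 genes, and among the 8 members of 2500 to 4000 nt it was 0.02, against -0.01. In all, 35 of 45 members lay above the median of all genes of their length class. With an offset for length and GC content in each library, 33 members were positive, against 49.4% of all genes, and 12 changed sign, 8 of them from positive to negative. With the offset, 2 members had an unadjusted p below 0.05 (against 3.27% of genes higher), Psma2 at 0.47 and Psmb10 at 0.26, and 2, Psma2 and Psmc1, did not overlap between groups (against 2.49%). Psma7 went from 0.30 to 0.14, Psmb5 from 0.24 to 0.04 and Psmc5 from 0.26 to 0.15. The value of Psma2 under the offset rests on a transcript model of 2911 nt, while another coding isoform in the annotation has 1353 nt.

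**Figure D4:**
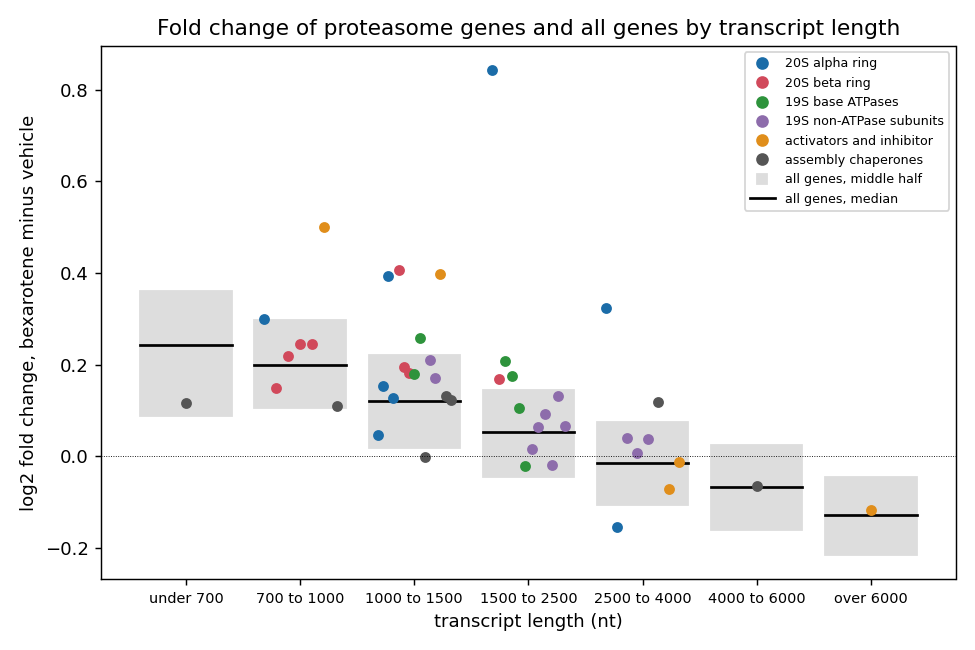
Log2 fold change (bexarotene minus vehicle, y axis) by transcript length class in nt (x axis); grey boxes run from the lower to the upper quartile of all genes above 2 log2 CPM in a class, black lines their median, and coloured points are the 45 proteasome genes. Both the gene medians and the proteasome genes decline with length, and 35 of the 45 points lie above the line of their class.

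**Figure D5:**
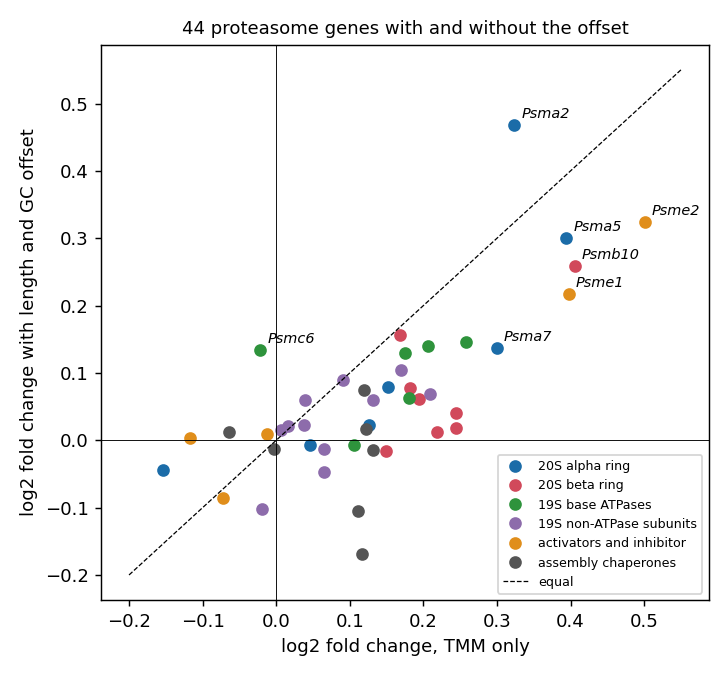
Log2 fold change of 44 proteasome genes (Psma8 is left out for its wide error) without (x axis) and with (y axis) the offset for length and GC content; the dashed line marks equal values. Most core and ATPase genes fall below the line, and Psma2 lies above it.

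How reads of near-identical copies were assigned is a step the sources used here do not describe, and its part in the levels was not tested. A search of the annotated mouse transcripts found a copy elsewhere in the genome, with at least 95% identity over 300 nt or more, for 9 members: Psma3, Psma4, Psma5, Psmb3, Psmb5, Psmc1, Psmd2, Psmd11 and Psme2. In 8 of them at least 1 copy is annotated as a pseudogene. Their median level was 15.4 CPM per kb, against 30.9 CPM per kb for the 37 members without such a copy. Levels varied among the 9: Psma5 was at 5.84 CPM per kb and Psmd11 at 7.02, while Psmb5 was at 42.8, Psmc1 at 40.6 and Psmd2 at 31.4. Psma3 was at 3.08 CPM per kb with its model of 2846 nt and would be at 10.2 with another isoform of 859 nt. Psma2, which had no such copy, was at 12.5 CPM per kb, or 26.8 with its shorter isoform. Psme2, whose copy Psme2b matches 794 nt at 99.4%, was at 1.31 CPM per kb, against 23.4 for its partner Psme1. The levels and differences of these 9 genes are uncertain for that reason. In addition, 9 members share exon bases with a gene on the opposite strand, among them Psmb7, Psmc3, Psme1 and Psmd13.

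Other genes of the pathway did not move as a block, and their transcripts had a greater median length than those of the members. It was 2483 nt for proteasome-associated genes, 2892 nt for genes of proteasome transcription and 3323 nt for ubiquitin and its shuttles, against 1476 nt. Their values with the offset are not given, and the part of length in them was not tested. Of 10 proteasome-associated genes outside the rule, 4 were positive and 6 negative (median -0.05), with 0 past the threshold. At an unadjusted p below 0.05, 2 were higher and 2 lower, against 4.88% and 3.89% of all genes. Pomp, the maturation factor of the core, was at 59.3 to 71.4 CPM under bexarotene and 54.1 to 61.7 CPM under vehicle (0.22 ± 0.08), and Shfm1, the smallest subunit of the lid, had a log2 fold change of 0.38 ± 0.12. Zfand5, an activator of the proteasome, was lower in every bexarotene library, at 104 to 123 against 129 to 151 CPM (-0.29 ± 0.09, adjusted p = 0.457 in edgeR's test). Of 8 genes that control proteasome transcription, 5 were positive (median 0.09) and 0 had an unadjusted p below 0.05. Nfe2l1 itself was at 272, 291, 268 and 301 CPM under bexarotene and 265, 253, 271 and 276 CPM under vehicle (0.09 ± 0.07), and Maff, a partner of this factor family, had 0.45 ± 0.29. Of 14 genes for ubiquitin and its shuttles, 7 were positive and 7 negative (median 0.02), with 0 past the threshold. At an unadjusted p below 0.05, 2 were higher and 1 lower, against 4.88% and 3.89% of all genes. Uba6, an enzyme that activates ubiquitin, was lower in every bexarotene library, at 9.33 to 9.91 against 10.7 to 17.7 CPM (-0.50 ± 0.15, adjusted p = 0.445 in edgeR's test). The transcripts of Zfand5 and Uba6 have 7385 and 6590 nt, and those of Pomp and Shfm1 have 1579 and 1472 nt. Akirin2, the other associated gene lower at an unadjusted p below 0.05 (-0.22 ± 0.09), has a short transcript of 1397 nt. Over 1542 genes of more than 6000 nt the median log2 fold change was -0.13.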

How the data were processed

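Cortex mRNA libraries were made with a stranded TruSeq kit, per the labels' protocols. The authors deposited raw read counts per RefSeq transcript; the submitters' processing notes name build mm9 and edgeR. Aligner, counting program and strand setting: not given in the sources used here. The table's 28644 rows were filtered and fitted with edgeR 4.0.16 in R 4.3.3 (TMM factors, default low-count filter, robust quasi-likelihood F test, group as the only term), and Benjamini-Hochberg adjustment ran over the 21285 rows tested. For the 16069 genes tested, the row of highest mean count stands for the gene. CPM are counts scaled to the total over tested rows times the TMM factor; the standard error comes from the F statistic, and log2 CPM used a prior count of 2. DESeq2 1.42.0 and edgeR's exact test were alternatives. Depth is 42413825 to 76542067 counts per library. The test was checked on simulated data.

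Transcript lengths and GC content came from GENCODE M21 (build GRCm38) by RefSeq accession, for 98.7% of rows tested; the offset is a spline trend per library. Copies were sought with blastn 2.17.0. Given in full are, for each of 6 member groups, the 2 members with the smallest p and the highest level per length, with the catalytic and inducible subunits; of each list of other pathway genes and of interferon-stimulated genes, up to 2 with the smallest p, with Psmb8, Psmb9, Nfe2l1 and Pomp. A gene that this rule names is not reported here. Other genes named were chosen after their values were seen. The members and lists were chosen with earlier results of these data known. Same-numbered libraries' deviations from group means correlated at 0.149 to 0.435, all above 0.1. For that reason the titles' numbers were treated as pairs in an alternative fit with a replicate block. Differently numbered libraries of the same cluster correlated at 0.042 to 0.45, so the check cannot tell pairs from library clusters.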

Additional observations from a re-analysis of the deposited data

Results flagged for a closer look

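Within the bexarotene group, Psmb5 was at 43.8 CPM in replicate 3, apart from the other 3 libraries, which lay between 41.0 and 41.2 CPM. Of 50 groups of 4 libraries checked in this way, this was the 1 with a sample so far from the others. Chance flags about 1 in 20 of the groups checked, a share that 1 of 50 does not exceed.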

How the results depend on the processing

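The count of members past the threshold was 0 with RLE or upper quartile factors, without the low-count filter, with 1 row per symbol, with edgeR's exact test, with the replicate block, with the library clusters as a term, with the offset, and without each library in turn. DESeq2 was the exception, with 1 (Psma7, log2 fold change 0.29, adjusted p = 0.0066), and the cause was not tested. The replicate block gave 38 positive members and a median of 0.13, and changed no call. The median was 0.0404 with the length and GC offset and 0.0425 with the offset and the replicate block (32 members positive, 13 negative). Members without overlap in either direction numbered 2 with the offset and 9 to 17 when 1 library was left out. Of all genes, 2.49% lay above and 1.69% below with the offset. When 1 library was left out, 3.99% to 6.77% lay above and 2.39% to 5.05% below, against 3.61% and 2.16% with all 8. Within replicates 1 and 3 the members without overlap numbered 29, with 22 above (against 29.9% of all genes) and 7 below (27%). Within replicates 2 and 4 they numbered 31, with 30 above (18.7%) and 1 below (16.9%). Without the 3 libraries richest in striatum markers, a setting chosen after seeing the data, they numbered 17, with 16 above (9.35%) and 1 below (8.02%). Medians were 0.11 to 0.18 when 1 library was left out. Psmd3 changed sign with upper quartile factors (0.0113) and within replicates 1 and 3 (0.0861), and ranged from -0.0518 to 0.0162 when 1 library was left out (positive without bexarotene or vehicle replicate 2). Of 12 members that changed sign with the offset, Psmg1 was the only one among those given in full (-0.0137, and -0.0113 with the block). The others were Psma1, Psmb2, Psmc3, Psmc6, Psmd5, Psmd8, Psmd13, Psme4, Psmf1, Psmg3 and Psmg4. Differences of this size are near the spread between libraries, and counts of Psma8, Psmb11 and Psme2 are too low for a direction.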
